A study of Mus musculus with 15 samples.

Results

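Immature CD4+CD8+ thymocytes carry acetylated H3K27 at many sites away from gene starts, and many of these sites have a peak of Rad21, which is the kleisin subunit that closes the ring of cohesin. The regions described here are the ones that had none. They were selected on the peak calls: an H3K27ac region shared by both replicate lists, without a Rad21 peak in either Rad21 list, and more than 2000 bp from the transcription start site (TSS) of every protein-coding gene. Of 16230 shared H3K27ac regions, 2731 met the rule. They are set beside 4717 distal regions that met the same rule except that they carried Rad21, and in places beside the 1458 promoter regions without Rad21.

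The study profiled CD69-CD4+CD8+ cells sorted from the thymus of wild type C57BL/6 mice by ChIP-seq, with 2 libraries for H3K27ac, 2 for Rad21 and 1 for CTCF. All 5 libraries come from cells of the same genotype, with no treatment named in the labels, and the age of the animals is not given there. Hi-C samples of wild type cells and of cells in which CD4 Cre deletes Ctcf, or Rad21 and Ctcf together, were not analysed here, and neither were the 2 inputs. Whether the replicates are separate animals is not stated in the labels, and the spread over lists may be technical.

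H3K27ac is laid down by acetyltransferases at active promoters and enhancers. Cohesin loads onto chromatin and extrudes DNA loops, and CTCF bound to its motif halts it, which gathers Rad21 peaks at CTCF sites. Cohesin is also found at many active enhancers and promoters that lack CTCF. In double positive thymocytes, which rearrange the T cell receptor alpha chain, loop extrusion is known to bring distant segments of that locus together.

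The deposited files are peak lists, 1 per library, without read counts, so the depth behind each call is unknown. The lists held 38700 and 24765 H3K27ac peaks in replicates 1 and 2, 38430 and 48462 Rad21 peaks, and 35345 CTCF peaks. The smallest −log10 q in the Rad21 lists was 1.31 in replicate 1 and 1.32 in replicate 2, and "without Rad21" means without a peak past such values. The H3K27ac lists reached down to a −log10 q of 0.188 in replicate 1 and 0.00455 in replicate 2, so they also held weak calls. With H3K27ac peaks of −log10 q of at least 1.3 only, 1067 regions met the rule in place of 2731. In a bulk ChIP, strong binding in few cells and weak binding in many cells cannot be told apart. Regions of a library are not replicates, and 2 lists per target allow no test, so every difference below is a description, with its spread over the lists of a target where that could be had. The label of the cells was checked against gene lists. A TSS was counted as acetylated, or as carrying H3K27ac, when a shared H3K27ac region lay within 2000 bp of it. All 20 genes of the T cell receptor and its coreceptors and signalling had an acetylated TSS, as did 19 of 20 regulators of double positive cells. Of the neuronal and liver genes, 0 of 11 and 0 of 10 had one.

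The sequences of 7 of the regions show what such a site looks like. Each is the 300-bp core window, centred on the longest stretch that both H3K27ac lists cover, on the plus strand of NCBIM37, the assembly that mm9 displays. Capitals mark matches on either strand to 5 motifs of factors that act in thymocytes: RUNX (TGTGGT), ETS (AGGAAGT), the E-box CAGCTG and E2-box CACCTG of E proteins, and TCF/LEF (CTTTGA). The first 4 are intronic regions among the 6 with the best H3K27ac rank in both lists, in Irs1 (insulin receptor substrate), Tcf12 (an E protein), Map3k13 (a kinase) and Mdfic. The other 3 lie in or near genes of thymocyte transcription factors.
Irs1, chr1:82279411-82279710: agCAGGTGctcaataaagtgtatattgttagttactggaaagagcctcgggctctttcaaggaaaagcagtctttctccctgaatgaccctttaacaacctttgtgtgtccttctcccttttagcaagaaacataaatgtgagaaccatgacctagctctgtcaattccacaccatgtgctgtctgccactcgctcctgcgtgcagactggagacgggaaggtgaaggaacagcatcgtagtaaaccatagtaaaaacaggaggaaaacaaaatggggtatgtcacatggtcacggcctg
Tcf12, chr9:71721664-71721963: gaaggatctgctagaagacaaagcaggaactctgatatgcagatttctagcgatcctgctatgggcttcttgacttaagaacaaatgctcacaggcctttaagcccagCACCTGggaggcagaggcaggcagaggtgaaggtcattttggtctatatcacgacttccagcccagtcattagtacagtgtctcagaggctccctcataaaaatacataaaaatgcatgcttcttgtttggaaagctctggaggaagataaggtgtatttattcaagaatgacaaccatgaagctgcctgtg
Map3k13, chr16:21906142-21906441: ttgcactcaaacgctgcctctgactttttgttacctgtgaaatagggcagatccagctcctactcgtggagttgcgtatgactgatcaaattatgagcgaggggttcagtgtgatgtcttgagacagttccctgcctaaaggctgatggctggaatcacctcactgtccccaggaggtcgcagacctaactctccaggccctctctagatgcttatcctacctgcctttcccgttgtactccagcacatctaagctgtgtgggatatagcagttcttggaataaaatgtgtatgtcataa
Mdfic, chr6:15743711-15744010: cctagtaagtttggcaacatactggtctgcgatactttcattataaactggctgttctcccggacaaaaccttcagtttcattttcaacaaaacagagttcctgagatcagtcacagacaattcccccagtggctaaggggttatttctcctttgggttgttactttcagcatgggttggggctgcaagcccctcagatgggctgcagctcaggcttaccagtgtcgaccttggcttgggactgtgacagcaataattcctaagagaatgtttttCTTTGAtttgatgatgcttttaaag
Lef1, chr3:130767961-130768260: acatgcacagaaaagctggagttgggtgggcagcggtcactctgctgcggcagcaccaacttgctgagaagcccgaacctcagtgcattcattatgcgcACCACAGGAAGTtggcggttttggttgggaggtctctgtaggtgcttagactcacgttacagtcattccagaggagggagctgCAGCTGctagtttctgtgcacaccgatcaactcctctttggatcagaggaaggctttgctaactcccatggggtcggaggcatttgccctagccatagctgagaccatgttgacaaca
Bcl11b, chr12:109177874-109178173: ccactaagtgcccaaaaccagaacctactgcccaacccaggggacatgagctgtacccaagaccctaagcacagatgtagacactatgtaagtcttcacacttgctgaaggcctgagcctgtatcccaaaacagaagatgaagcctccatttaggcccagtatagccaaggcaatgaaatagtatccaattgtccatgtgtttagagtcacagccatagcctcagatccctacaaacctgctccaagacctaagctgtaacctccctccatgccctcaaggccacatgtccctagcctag
Runx1, chr16:92652166-92652465: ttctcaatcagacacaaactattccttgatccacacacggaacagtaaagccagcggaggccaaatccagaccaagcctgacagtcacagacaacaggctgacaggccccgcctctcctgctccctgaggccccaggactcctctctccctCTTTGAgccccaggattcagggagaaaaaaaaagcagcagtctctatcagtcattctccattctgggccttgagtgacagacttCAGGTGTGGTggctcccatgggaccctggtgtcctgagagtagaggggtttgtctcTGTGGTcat
The window near Lef1 held a RUNX and an ETS match that overlap, starting at bases 100 and 105, and an E-box at base 183. The Runx1 window held a TCF/LEF match at base 152, an E2-box and a RUNX match that overlap at bases 236 and 240, and a further RUNX match at base 292. The Irs1, Tcf12 and Mdfic windows held 1 match each, and the Map3k13 and Bcl11b windows held none of the 5 motifs.

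Regions without Rad21 made up 36.7% of the 7448 distal regions. Over all 16230 shared H3K27ac regions the share without Rad21 was 25.8%. The share of the distal regions rests on both H3K27ac lists: among all distal peaks of a single list it was 76.1% for replicate 1 and 63.8% for replicate 2. The remaining distal regions divided into 281 with a Rad21 peak in replicate 1 only, 1219 with a peak in replicate 2 only and 3217 with a peak in both lists, which is 3.77%, 16.4% and 43.2% of the distal regions. The longer Rad21 list took out more regions: with the Rad21 list of replicate 1 alone 3950 distal regions lacked a peak, and with that of replicate 2 alone 3012 did. Where a distal region carried Rad21 in a single list, that peak was lower, with a median fold enrichment over background of 5.02 (replicate 1) and 5.42 (replicate 2). Regions with a peak in both lists had medians of 7.74 and 10.0.

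Some regions lay just inside or just outside the rule. A region of 2971 bp in an intron of Abi1, a regulator of actin, and one of 384 bp in an intron of Ncs1, a neuronal calcium sensor gene, counted as being without Rad21 although a Rad21 peak lay 2 bp from their nearest base. Distal regions near Gm6657 and in Sdccag8 counted as Rad21-bearing for overlaps of 2 bp and 6 bp. On the side of gene starts, regions 2006 bp from the TSS of BC051019 and 2024 bp from that of Taf4a, which encodes a subunit of the general transcription factor TFIID, were kept. Regions without Rad21 at 1998 bp from the TSS of 2310044G17Rik and at 1985 bp from that of 4931414P19Rik were left out. A Rad21 peak within 1000 bp was found for 183 of the 2731 regions, or 6.70%.

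The regions without Rad21 lay in the introns of genes more often than the Rad21-bearing ones. The middle of the core was in an intron of a protein-coding gene in 1785 of 2731 regions without Rad21, or 65.4%, against 2089 of 4717 with Rad21, or 44.3%; over all shared H3K27ac regions the share was 46.0%. An exon held 4.32% of the regions without Rad21 and 3.10% of those with it. Intergenic positions held 30.3% of the regions without Rad21, against 52.6% of those with it. The same difference appeared against every kind of Rad21 call: introns held 49.5% of distal regions with Rad21 in replicate 1 only, 47.9% of those with Rad21 in replicate 2 only and 42.5% of those with Rad21 in both lists.

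The difference in intron share was larger than the spread between lists. Taking each H3K27ac list alone, introns held 69.1% ± 1.77 of the regions without Rad21 and 46.1% ± 0.943 of those with Rad21 (SD, n = 2 lists). Taking each Rad21 list alone, the shares were 61.9% ± 2.76 without Rad21 and 43.5% ± 0.660 with Rad21 (SD, n = 2 lists). The libraries of a target share their cells' tissue and strain, and these pairs of lists also share the lists of the other target.

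Between genes, regions without Rad21 were sparser than those with it, and about as sparse as in introns of genes without an acetylated TSS. Introns of genes whose own TSS carried H3K27ac made up 13.7% of the distal genome, meaning all bases over 2000 bp from a protein-coding TSS, and held 1489 regions without Rad21 and 1678 with it. Per 100 Mb of such introns there were 452 regions without Rad21 and 509 with it. Introns of other genes, 20.9% of the distal genome, held 58.9 per 100 Mb without Rad21 and 81.7 with it. Intergenic sequence, 63.3% of the distal genome, held 54.3 per 100 Mb without Rad21 and 163 with it. Seen the other way, 47.0% of the distal H3K27ac regions in introns of genes with an acetylated TSS lacked Rad21, against 41.9% in introns of other genes, 44.7% in exons and 25.0% between genes. Acetylation at the host TSS therefore went with a high density of both kinds of region, while the share without Rad21 differed most between gene bodies and intergenic sequence.

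**Figure D1:**
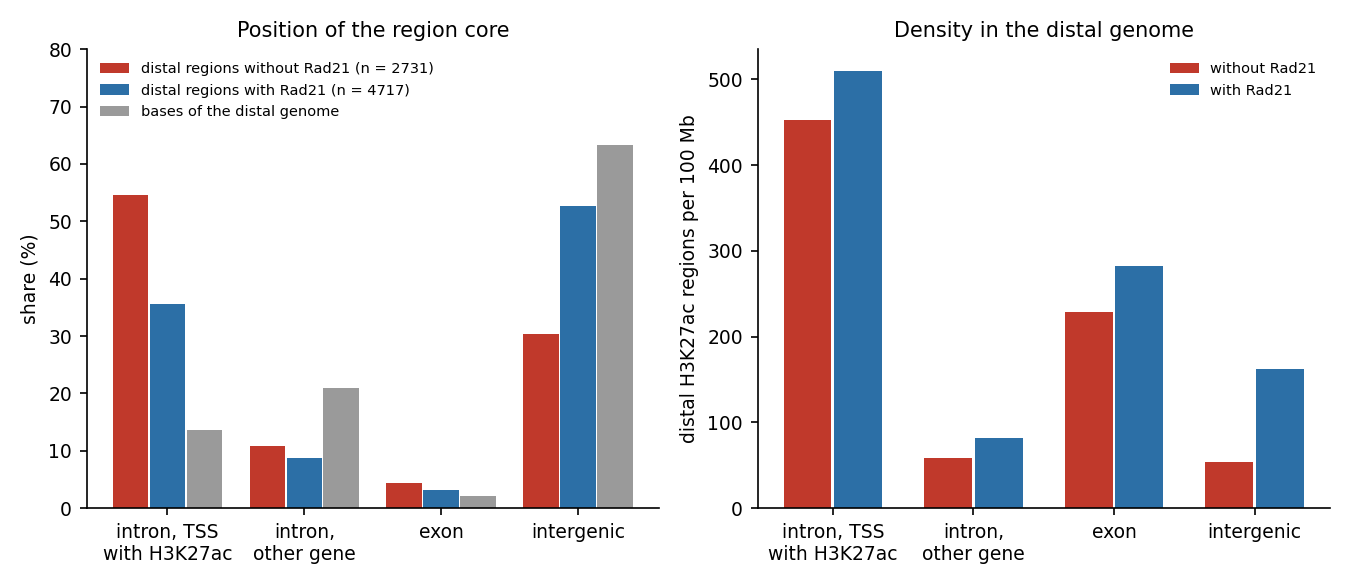
Position of the distal H3K27ac regions. Left, share (%) of the 2731 regions without Rad21, the 4717 with Rad21 and the bases of the distal genome in introns of genes whose TSS carries H3K27ac, introns of other genes, exons and intergenic sequence; right, regions per 100 Mb of each. Densities of both kinds are close in introns of genes with an acetylated TSS, at 452 and 509, and apart between genes, at 54.3 and 163.

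Among intronic regions, the host genes of both kinds were alike in size and in where the region sat. The median host gene was 107 kb long for regions without Rad21 and 109 kb for those with it. The median position was 52.0% of the way from the TSS to the end of the gene without Rad21 and 48.3% with it. The host TSS was acetylated for 83.4% of intronic regions without Rad21 and 80.4% of those with it. The median distance to the nearest TSS over all regions was 22320 bp without Rad21 and 20571 bp with it. The intron share fell with distance from a TSS in both kinds and stayed apart in each class: 74.3% without Rad21 against 53.2% with it between 2000 and 5000 bp, and 43.7% against 24.0% beyond 100000 bp.

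The regions without Rad21 were narrower. Their median width was 1555 bp, with quartiles of 1014 and 2423.5 bp and a range of 269 to 14334 bp, against a median of 2485 bp and quartiles of 1462 and 4122 bp for the Rad21-bearing regions. Together they covered 5.25 Mb, against 16.1 Mb. Width is tied to the rule, since a wider region meets a Rad21 peak more often. The share of distal regions without Rad21 was 55.6% among those of up to 1000 bp, 47.8% from 1000 to 1500 bp, 42.7% from 1500 to 2000 bp, 35.5% from 2000 to 3000 bp, 23.8% from 3000 to 5000 bp and 10.3% beyond 5000 bp. The intron difference was present in each of these classes. In the narrowest class introns held 57.6% of the regions without Rad21 and 25.0% of those with it, and in the widest class 82.5% and 56.9%.

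**Figure D2:**
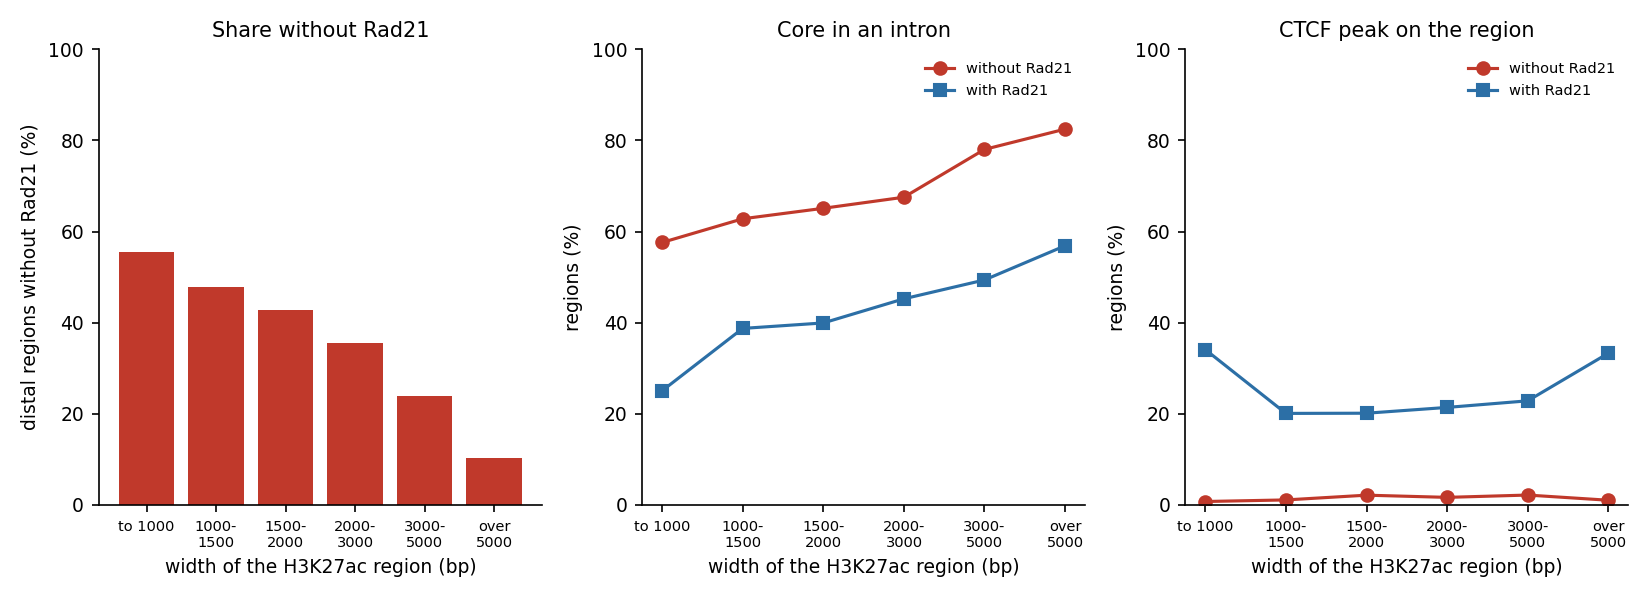
Distal H3K27ac regions by width (bp). Left, share (%) without Rad21, which drops to 10.3% in the widest class; middle, share (%) with the core in an intron; right, share (%) with a CTCF peak, each for regions without Rad21 (circles) and with Rad21 (squares). In every width class the circles lie above the squares for introns and below them for CTCF.

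The 2 H3K27ac lists agreed less well on the extent of the regions without Rad21. The stretch covered by both lists had a median of 455 bp, or 31.0% of the region's width, against 1049 bp, or 45.6%, in the Rad21-bearing regions. The share without Rad21 fell with the length of this common stretch: it was 67.1% up to 250 bp, 55.8% from 250 to 500 bp, 39.9% from 500 to 1000 bp, 18.7% from 1000 to 2000 bp and 4.93% beyond 2000 bp. The part of call quality in the absence of Rad21 was not tested. The intron difference held in every class of common stretch, with 68.2% without Rad21 against 45.3% with it up to 250 bp, and 82.7% against 49.5% beyond 2000 bp, where 52 regions without Rad21 remained.

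In height the regions without Rad21 differed little from the rest. The authors' fold enrichment of the H3K27ac peak had a median of 2.64 in replicate 1 without Rad21 (quartiles 1.90 and 4.62) and 2.86 with Rad21, and of 2.88 in replicate 2 without Rad21 (quartiles 2.00 and 4.72) and 3.04 with Rad21. The highest fold of any region without Rad21 was 47.8 in replicate 1 and 29.2 in replicate 2, which were reached by different regions. A fold of at least 5 in both lists was met by 160 regions without Rad21, or 5.86%, and by 5.13% of those with it. In replicate 1 taken by itself 22.0% without Rad21 and 21.5% with it met this fold, and in replicate 2 23.1% and 21.3%. The share of distal regions without Rad21 over 4 equal classes of height, low to high, was 43.6%, 33.7%, 32.1% and 37.3% by the replicate 1 fold and 44.1%, 31.7%, 33.5% and 37.4% by the replicate 2 fold. By both lists the lowest class had the highest share and the tallest class the next.

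Which of the regions were tall was not shared between replicates. Across the 2731 regions without Rad21, Spearman's rho between the folds of both lists was 0.0334, and across the 4717 with Rad21 it was 0.0504. Folds of the lists differed more than 2-fold in 39.8% of the regions without Rad21 and in 34.9% of those with it. Single regions are therefore described by the values of both lists, and an order by height in a single list says little about the other.

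**Figure D3:**
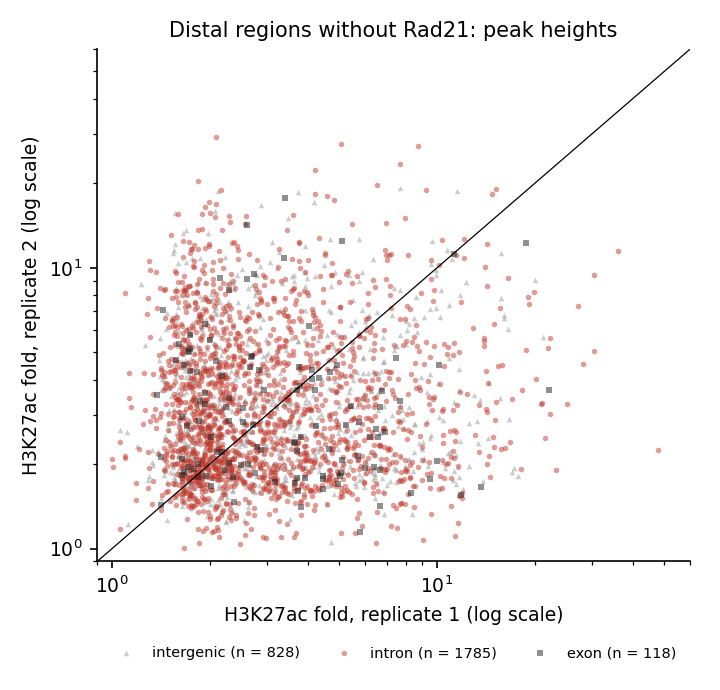
H3K27ac fold enrichment of the 2731 distal regions without Rad21, replicate 1 against replicate 2, both on log scales, by position of the core (intergenic, intron, exon); the line marks equal folds. Many regions are high in one list and near 2 in the other, and the 3 positions overlap throughout.

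The 6 regions ranked best in both lists were all in gene bodies. The Irs1 region, chr1:82279278-82280001, had folds of 15.2 and 19.2 in replicates 1 and 2. The Tcf12 region, chr9:71721369-71723225, had 14.8 and 18.2. A region in an exon of Bsn, a gene of the presynaptic active zone, chr9:108007343-108007687, had 18.8 and 12.2. The nearest Rad21 peaks of these 3 lay at 10768, 960 and 9115 bp. The Map3k13 region, chr16:21906037-21907272, had folds of 14.2 and 12.1, with the nearest Rad21 peak at 39710 bp. The Mdfic region, chr6:15742490-15744297, had 36.2 and 11.5, with the nearest Rad21 peak at 2048 bp. The sixth lay in an intron of 9430031J16Rik, chr1:81277130-81278034, with 12.1 and 12.7 and the nearest Rad21 peak at 5769 bp. None of the 6 carried a CTCF peak, which only 1.43% of all regions without Rad21 did.

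The 8 widest regions were intronic except for the last. A region of 14334 bp covered an intron of Tapt1, chr5:44586345-44600678, with folds of 4.42 and 2.12 and the nearest Rad21 peak at 4035 bp. Ssbp2, which encodes a partner of LIM-domain transcription factors, held a pair of them, of 12535 bp at chr13:91647353-91659887 with folds of 4.52 and 11.3 and of 8917 bp at chr13:91622122-91631038 with folds of 1.99 and 11.9. Regions of 12156 bp in Tbc1d22a and 11627 bp in Actn4, an actin crosslinker, lay 44357 and 15611 bp from Rad21. The others were 9462 bp in Ncoa2, a nuclear receptor coactivator, 9075 bp in Pan3, a subunit of a deadenylase, and 8893 bp between genes near Lrig1. None of the 8 carried a CTCF peak either, again beside 1.43% of all regions without Rad21.

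CTCF, which the rule did not use, was nearly absent from the regions without Rad21. A CTCF peak overlapped 39 of the 2731, or 1.43%, against 1175 of the 4717 Rad21-bearing regions, or 24.9%; over all shared H3K27ac regions the share was 24.6%. Since CTCF lies at many Rad21 peaks, leaving out Rad21 also leaves out those sites. In the core window of 300 bp, CTCF lay on 0.403% of the regions without Rad21 and 8.08% of those with it. The share with CTCF was between 0.752% and 2.17% without Rad21 and between 20.1% and 34.1% with it over the classes of width. Promoters without Rad21 carried CTCF in 6.24%. The CTCF values come from 1 library and have no replicate of their own. With each H3K27ac list alone the shares were 0.562% ± 0.166 without Rad21 and 22.4% ± 5.81 with it, and with each Rad21 list alone 2.02% ± 0.183 and 29.2% ± 4.38 (SD, n = 2 lists).

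CTCF marked the distal regions that had Rad21 in both lists more than those with it in a single list. It lay on 34.5% of distal regions with Rad21 in both lists, 6.41% of those with Rad21 in replicate 1 only and 3.77% of those with Rad21 in replicate 2 only. The 1.43% of the regions without Rad21 was below all 3.

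The 39 regions with CTCF but no Rad21 mostly held weak CTCF peaks. Their CTCF fold had a median of 2.91 and a range of 2.09 to 15.3, against a median of 7.10 on the Rad21-bearing regions and 5.78 over the whole CTCF list. A −log10 q under 1.3 was found for 29 of the 39, or 74.4%, against 20.3% on the Rad21-bearing regions. The strongest, of 15.3 and 10.2, lay on the Ncs1 region, chr2:31111809-31112192, and on a region near Spag11a, chr8:19160832-19161665, and both had a Rad21 peak 2 or 3 bp beyond their edge. Their H3K27ac folds were 9.56 and 9.11 for Ncs1 and 10.9 and 4.77 for Spag11a. The next were 6.18 in Scube3, 6.03 in an exon of Sdk1, 5.32 in Tasp1, which encodes a protease, and 4.87 in Fbxo34, at 5410, 1786, 3738 and 9306 bp from Rad21. The 150-bp windows centred on the strongest pair of CTCF peaks are given on the plus strand of NCBIM37. Capitals mark a match to the CTCF core consensus with at most 2 mismatches. Such a match was also found in 13.1% of 300-bp windows 5000 bp downstream of the regions without Rad21. Whether the marked stretches are bound was not tested. Both 150-bp windows lie past the edge of the H3K27ac regions.
Ncs1, chr2:31112225-31112374: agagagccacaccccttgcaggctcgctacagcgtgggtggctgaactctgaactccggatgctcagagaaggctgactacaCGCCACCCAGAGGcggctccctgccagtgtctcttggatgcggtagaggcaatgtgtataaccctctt
Spag11a, chr8:19161697-19161846: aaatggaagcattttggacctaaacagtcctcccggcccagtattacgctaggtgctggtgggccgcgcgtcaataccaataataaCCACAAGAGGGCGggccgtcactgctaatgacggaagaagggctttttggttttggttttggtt

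The median distance of the regions without Rad21 to the nearest Rad21 peak was 8543 bp, with quartiles of 3545.5 and 18989.5 bp, and 1519 of the 2731, or 55.6%, had one within 10000 bp. The median was 10906 bp with the H3K27ac list of replicate 1 alone and 10614.5 bp with the Rad21 list of replicate 1 alone. The median distance to CTCF was 15402 bp, against 8203 bp for the Rad21-bearing regions. Distances of more than 100000 bp to Rad21 occurred for 59 regions, or 2.16%. The farthest, 2499 bp wide at chr1:103798587-103801085 in the gene desert beside Cntnap5b, lay 1472751 bp from the nearest Rad21 peak and 2129245 bp from the nearest TSS, with H3K27ac folds of 1.70 and 1.85. Next came a region near Vmn2r96, a pheromone receptor gene, at 658019 bp with folds of 7.70 and 5.76, and one near Etv1, an ETS family factor, at 566369 bp with folds of 1.75 and 1.81. Regions in Kif18a, a kinesin, in Fbxw17 and near Sis followed at 563382, 523493 and 460149 bp. Intronic and intergenic regions without Rad21 were about as far from it, with medians of 8734 and 8523 bp.

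Shared H3K27ac regions no more than 12000 bp apart were joined into clusters to describe the neighbourhood. A further region that carried Rad21 lay in the same cluster for 1013 of the regions without Rad21, or 37.1%, against 50.3% of the Rad21-bearing ones; over all shared H3K27ac regions the share was 37.4%, close to that of the regions without Rad21. Of the regions without Rad21 52.4% stood alone in their cluster, against 43.6% of those with it. Intronic regions without Rad21 had a Rad21-bearing neighbour in 39.9% and intergenic ones in 30.2%. Clusters made only of regions without Rad21 numbered 1537 and held 1657 of the 2731 regions. Of these, 105 clusters had at least 2 regions, 225 regions in all. The largest held 3 regions each and lay in Nol10, in Chchd3 at 2 places, in Uxs1 and in Trerf1. The Nol10 cluster, chr12:17434933-17441813, had folds of 6.39 to 9.53 in replicate 1 and 3.19 to 7.11 in replicate 2, and lay 60836 bp from Rad21.

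Single genes held runs of such regions. Within gene bodies, 968 genes held 1 region without Rad21, 219 held 2 and 68 held 3. Ano6, a calcium-activated phospholipid scramblase, held 12 in its 184 kb beside 2 with Rad21. Snx29 held 11 in 80.9 kb beside 2 with Rad21, with a median H3K27ac fold of 6.29 in replicate 1 and 2.28 in replicate 2. Cux1, a homeodomain repressor, held 11 beside 6, Tbc1d22a 10 beside 3 and Mgat5, an N-glycan branching enzyme that acts on the T cell receptor, 8 beside 8. Chchd3, a protein of the mitochondrial cristae, held 9 and no distal region with Rad21, the nearest Rad21 peaks being between 21947 and 94858 bp away. The most stood under Gm20388, with 14 beside 36, and Fgfr2, with 13 beside 3, but the models of this release span 4435 and 3009 kb for these names. The TSS of Ano6, Snx29, Cux1, Tbc1d22a, Mgat5 and Chchd3 each carried H3K27ac.

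In sequence the cores of the regions resembled those of Rad21-bearing distal regions and not those of promoters. GC content had a median of 48.3% without Rad21 and 49.0% with it, against 61.2% in promoters without Rad21. The 300-bp core held a median of 3 CpG without Rad21 and 4 with it, against 19 in promoters without Rad21. Matches on both strands to short motifs were counted in each core and, as a background in the same neighbourhood, in windows 5000 bp downstream. ETS was found in 18.1% of the regions without Rad21, 16.9% of those with it and 7.65% of the windows downstream of the regions without Rad21; over all shared regions the share was 12.2%. The E-box was found in 22.8%, 25.1% and 13.3%, with 20.8% over all shared regions, and the E2-box in 28.1%, 30.4% and 21.9%, with 25.4% over all. In the shared regions, cores with and without Rad21 were nearer to each other in these 3 motifs than either was to the flank.

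Most other motifs were close to the flank. RUNX was found in 25.4% of the regions without Rad21, 25.7% of those with it and 22.6% downstream, with 18.5% over all shared regions. TCF/LEF was found in 20.6%, 22.2% and 20.1%, with 15.9% over all. The GATA motif AGATAA was found in 13.2%, 13.2% and 15.5%, with 8.87% over all, the ROR motif AGGTCA in 20.2%, 18.3% and 18.8%, with 15.3% over all, and the AP-1 motif TGANTCA in 9.19%, 8.59% and 8.57%, with 6.05% over all. Promoter cores, where RUNX was found in 14.5% of those without Rad21, enter the shares over all regions. The GC box GGGCGG was found in 6.59%, 11.2% and 4.58%, with 33.1% over all, and within the regions without Rad21 in 4.87% of intronic and 9.30% of intergenic cores. The CTCF core consensus with at most 2 mismatches was found in 13.3% without Rad21, 15.9% with it and 13.1% downstream, with 18.1% over all. None of RUNX, ETS, E-box, E2-box and TCF/LEF was found in 26.3% of the cores without Rad21 and 26.4% of those with it, as in the Map3k13 and Bcl11b windows shown above.

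**Figure D4:**
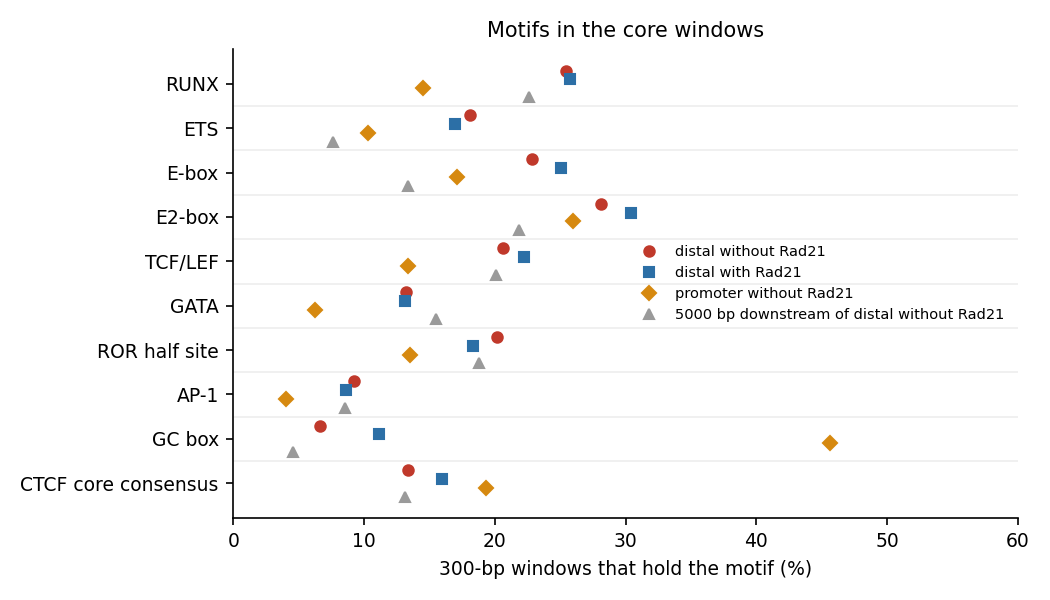
Share (%) of 300-bp windows with a match to each motif in distal cores without Rad21 (circles), distal cores with Rad21 (squares), promoter cores without Rad21 (diamonds) and windows 5000 bp downstream of the distal cores without Rad21 (triangles). Circles and squares lie close together except at the GC box, and both stand right of the triangles for ETS, at 18.1% and 16.9% against 7.65%.

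The motif shares moved with the list that defined the regions. With each H3K27ac list alone, ETS was found in 11.7% ± 1.69 of the regions without Rad21 and 14.8% ± 1.94 of those with it, the E-box in 17.5% ± 3.61 and 22.9% ± 2.84, and the GC box in 4.41% ± 1.69 and 10.2% ± 1.86 (SD, n = 2 lists). ETS was found in 10.5% without Rad21 and 13.5% with it in the replicate 1 list, and in 12.8% and 16.2% in the replicate 2 list, which is the other order from that in the shared regions. The E-box was found in 14.9% and 20.9% in the replicate 1 list, so that the cores without Rad21 there stood nearer to the flank of the shared regions than to the cores with Rad21. For all 3 motifs the share without Rad21 was lower in both lists.

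Genes were linked to a region that lay in their body or had their TSS as the nearest within 100000 bp. By this measure 9.17% of all 22209 protein-coding genes had a region without Rad21 and 13.0% had a distal region with Rad21. Of genes whose TSS carried H3K27ac, 15.1% had a region without Rad21 and 21.2% one with it. Links to regions without Rad21 were 37.9% of all distal links over all genes.

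Genes of the T cell receptor and of signalling downstream of it were linked mainly to distal regions that carried Rad21. Of their 42 links, 6, or 14.3%, were to regions without Rad21. Counted by gene, a region without Rad21 was linked to 4 of the 20, or 20%, and a distal region with Rad21 to 13 of the 20, or 65%, both above the shares over all genes and over those with an acetylated TSS. The kinase Zap70 had 1 without Rad21 and 2 with it, the adaptor Lcp2 1 and 2, the phospholipase Plcg1 2 and 1, and the kinase Fyn 2 and 3. The Zap70 region, chr1:36900769-36905252, lay in an intron of Tmem131 with folds of 1.87 and 1.80. The intronic Fyn region, chr10:39156260-39157320, had folds of 6.61 and 2.34. All 4 genes also had a distal region with Rad21. These lists are short, and links in 1 locus are not independent.

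Regulators of double positive cells had more distal regions of both kinds than the T cell receptor list. A region without Rad21 was linked to 9 of the 20 genes and a distal region with Rad21 to 15, the 9 among them. These shares, 45% and 75%, compare with 15.1% and 21.2% of genes with an acetylated TSS, which 19 of the 20 had. Of 77 links 16, or 20.8%, were without Rad21, against 37.9% over all genes. Lef1, a partner of beta-catenin, had 1 without Rad21 and 10 with it. Tcf12 had 3 and 2, Bcl11b, a factor of T lineage commitment, 1 and 4, Runx1 3 and 9, Ets1 1 and 4, and Ikzf3, an Ikaros family member, 1 and 2. Of the remaining 3 linked genes, added after their values were seen, Tox had 2 and 1, Sox4 3 and 3, and Myb 1 and 5. Among the 9, Tcf12 and Tox thus had more regions without Rad21 than with it. The 3 intronic regions of Tcf12 had folds of 14.8 and 18.2, 4.20 and 22.3, and 1.84 and 20.4 in replicates 1 and 2. The other 2, chr9:71799175-71805111 and chr9:71833958-71836271, lay 74843 and 106289 bp from Rad21. The Lef1 region, chr3:130767901-130769252, had folds of 1.97 and 2.06 and lay between genes 44137 bp from the Lef1 TSS. The Bcl11b region, chr12:109177031-109178334, had 12.4 and 3.54, and the 3 of Runx1 had 1.57 to 2.97 in replicate 1 and 3.55 to 7.84 in replicate 2, all in introns.

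**Figure D5:**
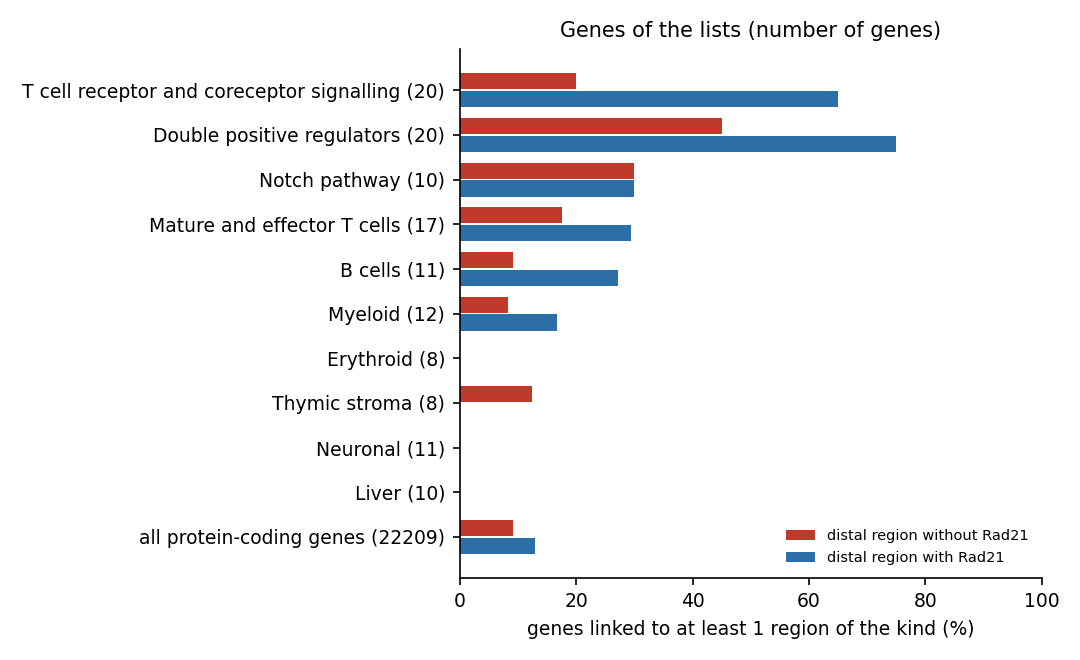
Share (%) of the genes of each list linked to at least 1 distal H3K27ac region without Rad21 (upper bar) and with Rad21 (lower bar); the number of genes stands in brackets. Regulators of double positive cells reach 45% and 75%, against 9.17% and 13.0% of all protein-coding genes. Over genes with an acetylated TSS, not drawn here, the shares are 15.1% and 21.2%. The erythroid, neuronal and liver lists have neither kind.

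The Notch pathway, which drives the stages before the double positive one, was linked to 5 regions without Rad21 and 6 with it. These are 45.5% of its 11 links without Rad21, against 37.9% over all genes. A region without Rad21 was linked to 3 of its 10 genes, or 30%. The share was 9.17% of all protein-coding genes and 15.1% of those with an acetylated TSS. The receptor gene Notch1 had 2 without Rad21 and 1 with it. Rbpj, the DNA-binding partner of the cleaved receptor, had 1, and the coactivator Maml1 had 2, and neither had a distal region with Rad21. Both Maml1 regions were intronic, chr11:50088518-50089558 and chr11:50100189-50100940, with folds of 2.05 and 2.04 in replicate 1 and 8.30 and 9.14 in replicate 2. Of genes of mature and effector T cells 3 of 17, or 17.6%, were linked to a region without Rad21. This is set beside the same 9.17% of all genes and 15.1% of genes with an acetylated TSS. Il7r, the interleukin receptor that double positive cells shut off, had 1 in an intron of the neighbouring Spef2, Runx3, a factor of CD8 cells, 1, and the inhibitory receptor Ctla4 2. The B cell list had 1 of 11, Ebf1, the myeloid list 1 of 12, Csf1r, and the thymic stroma list 1 of 8, Epcam. These shares of 9.09%, 8.33% and 12.5% lay near the 9.17% of all genes, while the erythroid, neuronal and liver lists had 0 of 8, 0 of 11 and 0 of 10.

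Across chromosomes the share of distal regions without Rad21 was between 24.1% on X and 42.7% on chromosome 5. Chromosome X held 28 of the regions, or 1.03%, against 88 of the Rad21-bearing ones, or 1.87%. A TSS of a gene of any biotype, noncoding genes included, lay within 2000 bp of 112 regions without Rad21, or 4.10%, and of 7.08% of those with it.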

How the data were processed

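ChIP-seq peak lists of 5 wild type libraries were used, 1 per library (2 H3K27ac, 2 Rad21, 1 CTCF), on mm9. Per the submitters' processing notes the series used CASAVA 1.82 and 1.84, Bowtie2 2.3.2, HiC-Pro 2.7.8, Juicer 0.7.5, Bowtie 1.0.0 and MACS2 2.1.0, with no role given; neither the thresholds nor the controls behind these calls were given in the sources used here. The fold enrichment of each peak, a ratio over background, and its −log10 p and q are the authors' own, deposited as the caller wrote them. They carry no counts, so the precision that depth gives is unknown. Each list was used within itself, and folds of both lists are only set side by side.

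Lists were joined with Python 3.11.15, pandas 2.3.3 and numpy 2.4.6; overlap meant at least 1 bp, and a region took the highest fold of its peaks in a list. A distance is between nearest bases, so that 1 means adjacent. Gene models and sequence were those of GENCODE vM1 on NCBIM37, with 22209 protein-coding genes (Ptcra, not so classed there, was added to its list). Groups came from the labels, whose replicate numbers pair nothing here. Spread was taken over the values with each list of a target alone (n = 2). Regions were named by a rule: the widest, the best worse rank of both lists, the farthest from Rad21, the highest CTCF, those at the thresholds, the genes with most members and up to 6 genes per list. The members, lists and comparisons were chosen with earlier results of these data known. Centring 2 windows on CTCF peaks, leaving out windows on exons, and an alternative without gene models over 1000000 bp were chosen after seeing the data. The joining steps were tested on simulated intervals.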

Additional observations from a re-analysis of the deposited data

How the results depend on the processing

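Among the alternatives recomputed for the results below, no difference between regions without and with Rad21 changed direction; the height of H3K27ac and the other motifs were not recomputed under them, and ETS had the other order with each H3K27ac list alone. The lists of a single replicate set the number of regions: 2731 became 1067 with H3K27ac peaks of −log10 q of at least 1.3, 23106 with the replicate 1 lists of both targets, 9857 with the replicate 2 lists, and 3012 to 21193 with a list left out. The share without Rad21 (36.7%) was 50.2% with Rad21 peaks of −log10 q of at least 5, 83.0% and 66.5% with replicate 1 and 2 lists, and 40.4% to 76.1% with a list left out. The width ratio, regions without Rad21 over those with it (0.626), was 0.555 at the H3K27ac limit, 0.431 and 0.401 with replicate 1 and 2 lists, and 0.406 to 0.621 with a list left out. The CTCF difference in percentage points (-23.5) was -34.4 with replicate 1 lists and -30.1 to -17.8 with a list left out. The median distance to Rad21 (8543 bp) was 14508 bp with replicate 1 lists and 7601.5 to 10906 bp. The intron difference (21.1 points) was 18.1 at the Rad21 limit, 24.3 with replicate 2 lists, 17.0 to 24.9 with a list left out and 21.3 without gene models over 1000000 bp. The difference in the CTCF consensus (-2.61 points) was -8.18 with replicate 1 lists, -6.41 in 600-bp windows and -7.45 to -2.14 with a list left out. The difference in Rad21-bearing neighbours (-13.2 points) was -9.94 at the H3K27ac limit, -20.8 and -15.9 with replicate 1 and 2 lists, -5.88 when stitching within 3000 bp, and -19.2 to -12.6 with a list left out. Regulators of double positive cells with a region without Rad21 (9) numbered 15 at the Rad21 limit and 5 with TSS of genes of every biotype. They numbered 19 and 17 with replicate 1 and 2 lists, and 10 to 18 with a list left out. The share over all protein-coding genes was not recomputed under these settings, so these counts show nothing particular to these regulators. A list left out leaves more H3K27ac regions or fewer Rad21 peaks by construction; other causes were not tested. No paired analysis was possible because the results come from no test and the replicate numbers pair no libraries. Peak lists without read counts do not show how many regions depth kept from a Rad21 call.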
